A study of Mus musculus with 2 samples.

Results

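Folr2 and Lyve1 resident macrophages of mouse bowel and mesenteric fat are described here, gene by gene, after surgery that opened the colon (colotomy) and after a sham operation. The members were chosen by measured UMI counts of named genes, so what the rule used is given as description only. A member is a barcode with at least 500 gene UMIs (unique molecular identifiers, each a counted RNA molecule), at least 300 genes and under 20% mitochondrial UMIs that also passes a rule on single genes. The rule asks for at least 3 UMIs of C1qa, C1qb and C1qc together, at least 1 UMI of Folr2, Lyve1, Cbr2, Cd163 and Timd4 together, at most 2 UMIs of Spp1, and no UMI of Col1a2, Epcam, Cd79a or Cd3e. It found 472 members among 51389 kept barcodes, 58 of 9246 in the colotomy library and 414 of 42143 in the sham library. The barcodes that pass every step but hold 0 UMIs of the 5 marker genes, 237 and 289, are called marker-free C1q cells, and both kinds together are called C1q cells.

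The colotomy and sham groups have 1 library each and the effect of the operation was therefore not tested. Both were taken on postoperative day 14 from B6/C57 mice aged 8 to 12 weeks, with no transgene or other agent in the labels. Each library pools cells from the bowel with cells from mesenteric fat (MAT in the labels), each tissue stained with its own hashtag antibody first. How many animals went into a library is not given in the sources used here. The study concerns fibrosis of the bowel and the fat around it. Intervals are 95% intervals for counting error only, and do not cover differences between animals, digestions or libraries.

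Tissue macrophages make the 3 chains of C1q, which starts the classical complement pathway. A subset that lies along vessels, nerves and fat is known for surface receptors that take up debris, sugars and haemoglobin, and is renewed in part without blood monocytes. Folr2 is a folate receptor, Lyve1 a hyaluronan receptor shared with lymphatic endothelium, Cd163 the haemoglobin-haptoglobin scavenger receptor and Timd4 a phosphatidylserine receptor of long-lived macrophages. Cbr2 is a carbonyl reductase. Other macrophages of the gut wall arise from Ccr2-positive monocytes, carry Cx3cr1 and much MHC class II, and in scars or lipid-rich tissue express genes such as Gpnmb, Fabp5 and Spp1.

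The 5 marker genes are not neighbours in the genome. By RefSeq (GRCm38.p6) Folr2 lies at chr7:101839988-101857190, Lyve1 at chr7:110850607-110862953, Cd163 at chr6:124304636-124330529, Timd4 at chr11:46810786-46844333 and Cbr2 at chr11:120729485-120732025. The 3 C1q genes lie side by side on chromosome 4, from 136880126 to 136898844. The promoter-side sequences of 4 of the marker genes, which defined the cells together, are shown for comparison with each other. Each has 230 bases that end 20 bases before an annotated transcription start. For Cbr2, Cd163 and Timd4 that start is not the edge of the RefSeq gene given above. Capitals mark the letters GAGGAA (the core that the macrophage factor PU.1 binds) and TGCTGA (part of the site of MAF factors), searched on both strands. No match shown overlaps another.
Folr2, chr7:101857211-101857440, minus strand: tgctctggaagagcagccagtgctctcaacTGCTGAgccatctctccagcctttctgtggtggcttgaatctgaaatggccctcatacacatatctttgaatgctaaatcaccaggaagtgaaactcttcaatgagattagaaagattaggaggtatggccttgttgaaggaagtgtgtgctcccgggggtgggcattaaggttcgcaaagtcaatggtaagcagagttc
Cbr2, chr11:120732042-120732271, minus strand: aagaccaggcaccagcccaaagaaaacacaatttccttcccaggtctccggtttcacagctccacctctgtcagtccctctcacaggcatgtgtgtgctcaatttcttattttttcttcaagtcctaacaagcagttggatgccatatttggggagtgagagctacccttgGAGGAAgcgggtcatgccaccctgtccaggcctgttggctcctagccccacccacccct
Cd163, chr6:124304401-124304630, plus strand: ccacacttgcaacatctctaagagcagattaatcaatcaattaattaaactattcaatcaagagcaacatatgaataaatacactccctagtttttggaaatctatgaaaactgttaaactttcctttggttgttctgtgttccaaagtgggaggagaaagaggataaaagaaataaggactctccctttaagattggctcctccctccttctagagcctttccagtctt
Timd4, chr11:46810549-46810778, plus strand: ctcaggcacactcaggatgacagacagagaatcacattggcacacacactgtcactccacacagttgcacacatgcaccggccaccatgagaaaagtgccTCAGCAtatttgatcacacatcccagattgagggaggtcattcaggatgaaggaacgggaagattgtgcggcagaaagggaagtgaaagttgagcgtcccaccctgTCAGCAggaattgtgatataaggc
The Cbr2 window holds 1 GAGGAA, the Folr2 window 1 TGCTGA and the Timd4 window 2 TGCTGA on its other strand (read there as TCAGCA). The Cd163 window holds neither motif. Of 32851 windows of this length in the table, 21.3% hold GAGGAA and 14.9% hold TGCTGA, so single matches are common. The oligos of the hashtag antibodies, which the submitters pair with bowel and MAT, are also shown, since they would give each member its tissue.
Hashtag 1, bowel: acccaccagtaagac
Hashtag 2, MAT: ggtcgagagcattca

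The sums behind the values differ in depth. Members of the colotomy library hold 46488 UMIs and those of the sham library 655331, so 1 UMI is 21.5 CPM (UMIs of a gene per 1e6 UMIs of the summed cells) in the first and 1.53 CPM in the second. Median UMIs per member were 689.5 and 1345, close to the 729 and 1298 of marker-free C1q cells in the same libraries. The rule on other lineages shaped the members: of 606 and 2090 kept barcodes with at least 3 C1q UMIs, 267 and 1382 held a UMI of Col1a2, Epcam, Cd79a or Cd3e. Those removed were deeper (median 932 and 2165 UMIs against 764 and 1342), and 42 and 866 of them held a marker gene. RNA of other lineages was widespread, whether from those cells or free in the droplets, with Cd79a (a B cell gene) in 57.9% of kept sham barcodes and Col1a2 (a fibroblast collagen gene) in 52.0% of kept colotomy barcodes. Between the libraries 108 kept barcodes had the same sequence, of which 3 were members in 1 library, and no barcode was a member in both.

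Genes that are known from resident macrophages, and that the rule did not use, were found in members of both libraries. Mrc1, the mannose receptor, was at 860 CPM (40 UMIs) in colotomy members and 903 CPM (592 UMIs) in sham members. F13a1, the A chain of coagulation factor XIII, was at 1011 and 1042 CPM. Stab1, a scavenger receptor, was at 624 and 621 CPM, Gas6, a ligand of the TAM receptors, at 452 and 536 CPM, and Pf4, a chemokine, at 1742 and 1286 CPM. All 5 of these genes were found in both libraries, and none differed 1.5-fold between them. A UMI of Mrc1 was found in 32 of 58 and 270 of 414 members (55.2% and 65.2%), and of F13a1 in 28 and 289 (48.3% and 69.8%). Among epithelial cells (at least 2 Epcam UMIs and none of C1q or the other exclusion genes), which should lack both, Mrc1 was found in 2.69% and 2.28% and F13a1 in 2.28% and 2.28%, although their median depth was 1431 and 3107 UMIs. Pf4 was found in 2.69% and 1.40% of epithelial cells, and Stab1 in 0.621% and 1.40%. Gas6 was not limited to macrophages, and was found in 31.7% and 35.9% of epithelial cells. After thinning to 500 UMIs, Gas6 was found in 12.01% of colotomy epithelial cells and 8.14% of colotomy C1q cells. In the sham library these shares were 5.71% and 17.35%. Marker-free C1q cells also held Mrc1, at 622 CPM in the colotomy library and 518 CPM in the sham library. In sham, Mrc1 was at least 1.5-fold higher in members than in marker-free cells, with an interval clear of no difference. In colotomy it was not among the genes with such an interval. With cells thinned to 500 UMIs, in separate draws, Mrc1 was found in 34.1% of sham members and 34.0% of all sham C1q cells, which include the members.

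A UMI of the 5 marker genes, taken as 1 set, was found in C1q cells more often than in cells that should lack them. With each cell thinned to 500 UMIs, a UMI of any of them was found in 44 of 295 colotomy C1q cells (14.9%, 11.1% to 19.5%) and 279 of 703 sham C1q cells (39.7%, 36.0% to 43.4%). The same share was 8 of 483 (1.66%) and 11 of 788 (1.40%) in epithelial cells, and 48 of 4226 (1.14%) in sham B cells. B cells here are barcodes with at least 3 Cd79a UMIs and none of C1q, Col1a2, Epcam or Cd3e. The epithelial and B cells were chosen to hold no C1q UMI, which can also leave out barcodes with stray macrophage RNA. Their shares therefore do not measure how much of the marker RNA in C1q cells is background. Without thinning, epithelial cells gave 2.90% and 5.46%. Timd4 alone did not follow this in the colotomy library, where it was found in 0 of 295 thinned C1q cells, which allows up to 1.02%, and in 2 of 483 epithelial cells (0.414%). In the sham library it was found in 13 of 703 and 0 of 788. Only 10 colotomy barcodes met this B cell definition, although 8.38% of kept colotomy barcodes held Cd79a. Of these, 0 held a marker UMI, which allows a share of up to 30%. The plot of cells with a marker UMI shows Folr2, Lyve1, Cbr2 and Cd163 each at a higher share in sham C1q cells than in colotomy C1q cells.

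**Figure D1:**
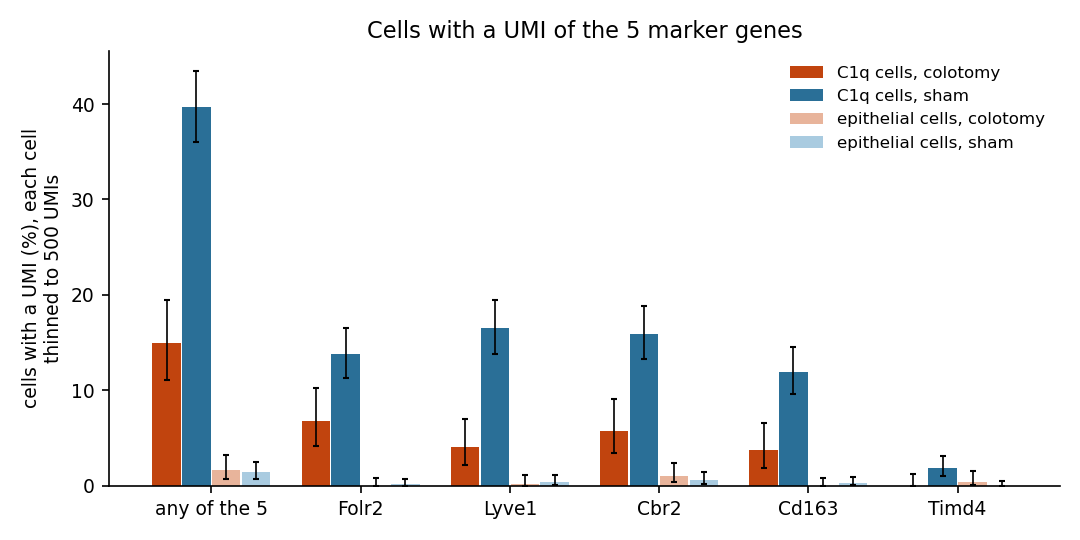
Share of cells (%) with at least 1 UMI of any of the 5 marker genes and of each one, after thinning every cell to 500 UMIs, in C1q cells (dark) and epithelial cells (light) of each library, with exact 95% binomial intervals. For any of the 5 genes, C1q cells stand at 14.9% in the colotomy library and 39.7% in the sham library, and epithelial cells at 1.66% and 1.40%.

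The first comparison concerns what part of the C1q cells are Folr2/Lyve1 macrophages in each library. The share was 58 of 295 C1q cells (19.7%, 15.3% to 24.7%) in the colotomy library and 414 of 703 (58.9%, 55.2% to 62.6%) in the sham library. Drawing 500 UMIs from every cell before applying the whole rule gave 43 of 244 (17.6%, 13.1% to 23.0%) and 296 of 649 (45.6%, 41.7% to 49.5%), so the intervals did not overlap at equal depth either. As a share of all kept barcodes the members were closer, at 0.627% (0.477% to 0.810%) and 0.982% (0.890% to 1.08%). C1q cells as a whole were 3.19% and 1.67% of kept barcodes, and marker-free cells made up most of them in the colotomy library. Asking for at least 2 marker UMIs gave 10.2% and 52.5%, and at least 6 C1q UMIs gave 26.5% and 65.7%. Under each of the 9 other ways of choosing cells that were run, the sham share stayed above the colotomy share with no overlap of intervals, as the plot of the share by setting shows. With 1 library per group, this difference cannot be told apart from a difference in how the 2 tissues were digested or mixed.

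**Figure D2:**
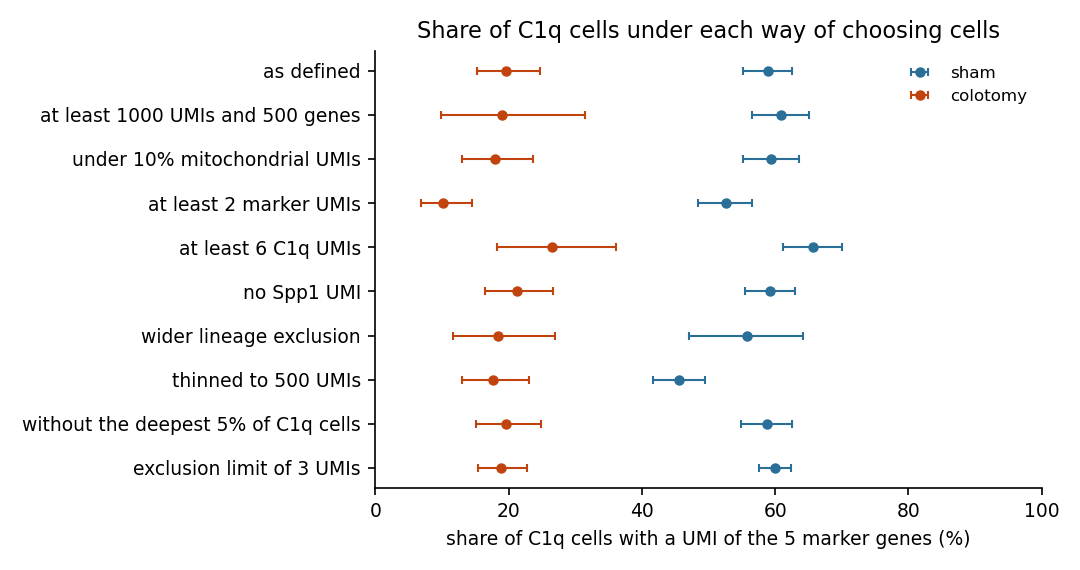
Share of C1q cells (%) that hold a UMI of the 5 marker genes, in the sham (blue) and colotomy (orange) library, under the rule as defined and 9 other settings, with exact 95% binomial intervals. The sham share runs from 45.6% to 65.7% and the colotomy share from 10.2% to 26.5%.

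Because the 5 genes chose the cells, their levels are a description. Folr2 was at 645 CPM (30 UMIs in 26 of 58 cells) in colotomy members and 540 CPM (354 UMIs in 212 of 414 cells) in sham members. Lyve1 was at 430 CPM (20 UMIs, 16 cells) and 685 CPM (449 UMIs, 234 cells). Cbr2 was at 624 CPM (29 UMIs, 21 cells) and 574 CPM (376 UMIs, 229 cells), and Cd163 at 495 CPM (23 UMIs, 17 cells) and 479 CPM (314 UMIs, 185 cells). Timd4 was the rarest, at 43.0 CPM (2 UMIs, 2 cells) and 70.2 CPM (46 UMIs, 36 cells). In the order of levels Folr2 led in the colotomy library and Lyve1 in the sham library. Most colotomy members entered on little evidence: 31 of 58 held exactly 1 marker UMI, against 94 of 414 sham members, and 9 and 30 held exactly 3 C1q UMIs. Just outside, 16 and 43 barcodes with a marker UMI held 2 C1q UMIs. A single marker gene was seen in 65.5% of colotomy members and 33.8% of sham members, and all 5 were seen in 0 and 5 cells.

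Among sham C1q cells the marker genes were found in the same cells. Lyve1 was found in 130 of 212 cells with Folr2 (61.3%, 54.4% to 67.9%) and in 104 of 491 without it (21.2%). Cbr2 was found in 141 of 234 cells with Lyve1 (60.3%) and 88 of 469 without (18.8%), and Cd163 in 93 of 212 cells with Folr2 (43.9%) and 92 of 491 without (18.7%). Timd4 was found in 20 of 212 cells with Folr2 (9.43%) and 16 of 491 without (3.26%). In the colotomy library Lyve1 was found in 6 of 26 cells with Folr2 (23.1%, 8.97% to 43.6%) and 10 of 269 without (3.72%). Both Timd4 cells of that library lacked the other 4 genes, and they also held 0 UMIs of MHC class II genes among 2119 UMIs. These shares follow depth as well as expression, since sham members with 1 marker gene had a median of 1247 UMIs and those with 4 had 1559.

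The next comparison sets members beside marker-free C1q cells within each library, where both were split by the rule and depth was alike. Of genes with at least 10 UMIs over both kinds of cells, 22.8% were at least 1.5-fold higher in members and 24.5% lower in the colotomy library (n = 3949 genes), and 18.3% and 11.9% in the sham library (n = 8982). With a counting interval that also excludes no difference, these shares were 2.89% and 2% in colotomy, and 4.15% and 3.25% in sham, so most genes past 1.5-fold had an interval that included no difference. Both libraries gave the same direction at 1.5-fold for 58 genes higher in members, of 1327 with enough UMIs, and 30 genes lower, of 1054. Of the 1327, 126 were higher in the sham library (9.50%) and 247 in the colotomy library (18.6%), and 13 of the 126 were lower in colotomy members. Of the 1054, 69 were lower in sham (6.55%) and 218 in colotomy (20.7%), and 7 of the 69 were higher in colotomy members. Of these, 11 from the high end and 12 from the low end are shown in the plot of log2 ratios.

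**Figure D3:**
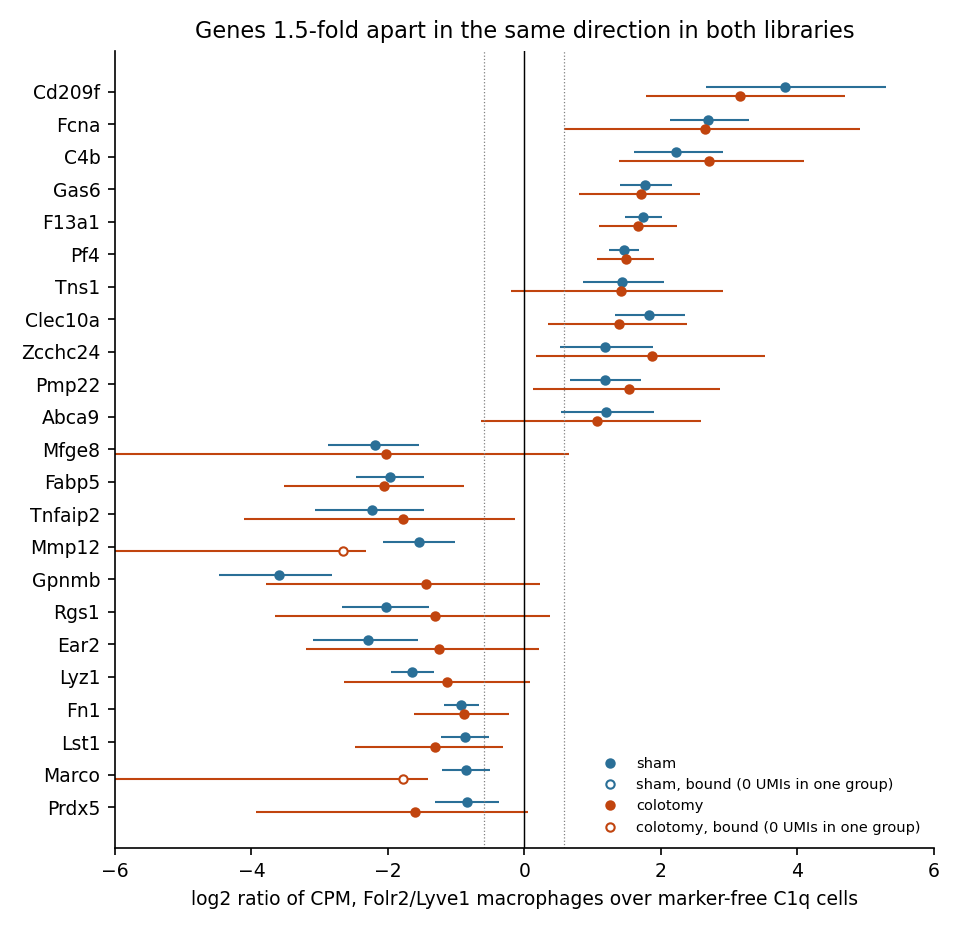
Log2 ratio of CPM in Folr2/Lyve1 macrophages over marker-free C1q cells for 11 genes of the high end and 12 of the low end that differed 1.5-fold the same way in both libraries (blue sham, orange colotomy), with 95% counting intervals. Dotted lines mark 1.5-fold, open circles are upper bounds where colotomy members held 0 UMIs (Mmp12 and Marco), and bars that reach the edge go on beyond it. Cd209f lies highest, at 3.83 in sham and 3.17 in colotomy.

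The lectins Cd209f and Fcna stood highest among the genes that were higher in members of both libraries. Cd209f, a C-type lectin of the DC-SIGN family, was at 191 CPM in sham members (125 UMIs) and 13.4 CPM in marker-free cells (6 UMIs), a log2 ratio of 3.83 (2.66 to 5.30). In the colotomy library it was at 323 CPM (15 UMIs) and 36.0 CPM (7 UMIs), a log2 ratio of 3.17 (1.78 to 4.70). Fcna, a secreted ficolin of the lectin complement pathway, was at 420 and 65.0 CPM in sham and 129 and 20.5 CPM in colotomy, the last 2 from 6 and 4 UMIs. Clec10a, a galactose lectin, was at 317 and 89.6 CPM and at 323 and 123 CPM. Cd209g was at 108 and 11.2 CPM in sham, and rests on 6 and 1 UMIs in colotomy. Of 20 resident receptors and scavengers, 11 were higher and 5 lower in sham members (all 20 measured, median log2 0.84), and 5 higher and 4 lower in colotomy members (16 measured, median 0.04), which is close to the shares of all genes in that library. Those lower in sham members included Clec4n, the lectin Dectin-2, and Axl, a TAM receptor, at log2 ratios of −1.37 and −1.07. Axl was at 172 and 169.5 CPM in the colotomy library, a log2 ratio of 0.02 (−1.30 to 1.16).

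Several secreted products were also higher in members. F13a1 was at 1042 CPM in sham members and 311 CPM in marker-free cells, and at 1011 and 318 CPM in the colotomy library, with log2 ratios of 1.74 (1.48 to 2.02) and 1.67 (1.09 to 2.24). Pf4 was at 1286 and 468 CPM and at 1742 and 622 CPM, with ratios of 1.46 and 1.49. Gas6 was at 536 and 157 CPM and at 452 and 139 CPM, with ratios of 1.77 and 1.70. Igf1, an insulin-like growth factor, was at 223 and 128 CPM and at 301 and 169.5 CPM, and the colotomy interval (−0.19 to 1.77) included no difference. Ltc4s, which makes leukotriene C4, was at 266 and 69.5 CPM in sham, and held 7 UMIs in colotomy members and 0 in marker-free cells. Of the 20 measured genes of this list in sham, 9 were higher in members and 3 lower (median log2 0.54), and of 15 in colotomy 8 were higher and 2 lower (median 0.74). Cxcl16, a chemokine of T cells, was lower in both, with ratios of −0.72 and −1.45.

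Complement C4b and the transcription factor Maf were higher in members of both libraries. C4b, a complement C4 gene, was at 252 and 53.8 CPM in sham and 301 and 46.2 CPM in colotomy. Maf, a macrophage identity factor, was at 1079 and 533 CPM and at 1570 and 673 CPM, with log2 ratios of 1.02 (0.80 to 1.23) and 1.22 (0.79 to 1.65). Cd36, a fatty acid and thrombospondin receptor, was 3.38-fold higher in sham members and 1.82-fold in colotomy members. With the 20 further lineage genes at 0 its colotomy ratio was −1.24 on the log2 scale, so its direction there rests on the choice of cells. Cst3, the protease inhibitor cystatin C, was 1.65-fold and 1.70-fold higher, while Ctss, the cathepsin that trims the MHC class II invariant chain, was lower, with log2 ratios of −0.99 and −0.61. The other genes at the high end were Tns1, Zcchc24, Pmp22 and Abca9, with log2 ratios from 1.07 to 1.87, and colotomy intervals for Tns1 and Abca9 that included no difference.

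MHC class II genes were lower in members. The 10 genes summed to 18064 CPM in sham members and 24881 CPM in marker-free cells, and to 12820.5 and 17690 CPM in the colotomy library. Per cell, the median was 16181 and 24933 CPM in sham and 12991 and 17482 CPM in colotomy, with quartiles of 8030 to 27127 CPM in sham members, so the cells overlap widely. In sham, 0 of the 10 were higher and 4 lower (median log2 −0.51), and in colotomy 1 of 9 measured was higher and 5 lower (median −0.63). Cd74, the invariant chain, gave −0.44 (−0.49 to −0.38) and −0.30 (−0.49 to −0.11), which is under 1.5-fold.

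Genes of monocyte-derived and scar-associated macrophages were also lower. Gpnmb, a lysosomal glycoprotein of lipid-laden macrophages, was at 22.9 CPM in sham members and 276 CPM in marker-free cells, and 11 of its 15 UMIs in members lay in 1 cell. In the colotomy library it was at 64.5 and 175 CPM, from 3 and 34 UMIs, with an interval that included no difference. Fabp5, a fatty acid carrier, was at 74.8 and 291 CPM and at 129 and 534 CPM. Mmp12, the macrophage elastase, was at 71.7 and 208 CPM in sham, with 34 of 47 member UMIs in 1 cell, and at 0 UMIs in colotomy members against 79 in marker-free cells, at least 6.29-fold lower. Most marker-free cells held neither gene: Gpnmb was found in 10 of 289 sham and 15 of 237 colotomy cells, and Mmp12 in 11 and 20. Of the Gpnmb UMIs in sham marker-free cells, 42 of 123 lay in 1 cell, and of the Mmp12 UMIs in colotomy ones, 22 of 79. Fn1, fibronectin, was at 349 and 663 CPM and at 452 and 832 CPM. Cx3cr1, the fractalkine receptor, was at 88.5 and 246 CPM in sham and at 172 and 226 CPM in colotomy, the last under 1.5-fold. Of 13 scar- and lipid-associated genes in sham, 9 were lower in members and 0 higher (median log2 −1.14), and of 14 in colotomy 7 were lower and 0 higher (median −0.72). The colotomy median turned to 0.038 in cells with at least 1000 UMIs and 500 genes, which leaves 11 members. This list holds Spp1, which the rule limits. Of the monocyte-derived list, 7 of 13 were lower and 1 higher in sham, and 8 of 11 lower and 0 higher in colotomy. The interval was clear of no difference for 6 of the lower genes in sham and 2 in colotomy (Fn1 and S100a6). Ccr2, the receptor of blood monocytes, was at 218 and 341 CPM and at 280 and 447 CPM, although with 20 more genes of other lineages at 0 its colotomy ratio was 0.0018 on the log2 scale. Of 8 inflammatory genes measured in sham, 6 were lower and 0 higher, and of 10 in colotomy 4 were lower and 1 higher.

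The remaining genes at the low end were Mfge8, which tags dying cells for uptake, Tnfaip2, Rgs1, Ear2, the lysozyme Lyz1, Lst1, the scavenger receptor Marco and the peroxiredoxin Prdx5. Their log2 ratios ran from −2.30 to −0.84 in sham and from −2.02 to −1.13 in colotomy, with intervals including no difference in the colotomy library for Mfge8, Rgs1, Ear2, Lyz1 and Prdx5, and with an upper bound for Marco. Marco was at 0 UMIs in colotomy members. In sham members 61 of its 124 UMIs lay in 1 cell. All 6 UMIs of Lyz1 in colotomy members lay in 1 cell as well. With barcodes allowed up to 2 UMIs of each exclusion gene (86 and 976 members), the colotomy ratios of Marco and Prdx5 were 0.48 and 0.11, above no difference. Those of Lyz1 (1.74 with at least 6 C1q UMIs), Rgs1 (0.096 with at least 1000 UMIs) and Ear2 (0.061 with 20 more lineage genes at 0) turned as well, so the direction of these 5 genes in colotomy members rests on the choice of cells.

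RNA of other cells was measured beside these results. In colotomy members the 6 neutrophil markers summed to 1033 CPM (48 UMIs, 29 of them in 1 cell) against 2964 CPM in marker-free cells, and in sham to 59.5 and 108 CPM. The 7 epithelial markers summed to 430 and 2059.7 CPM in colotomy and 485 and 571 CPM in sham, and the 7 fibroblast markers to 882 and 1418 CPM and to 583 and 600.4 CPM. The 7 B and plasma cell markers summed to 602 and 1587 CPM in colotomy and 1006 and 1055 CPM in sham. Lymphatic endothelium also makes Lyve1. Its 6 markers were higher in members of both libraries. They summed to 129 CPM (6 UMIs) in colotomy members and 30.8 CPM (6 UMIs) in marker-free cells, with intervals that overlapped. In sham they summed to 71.7 CPM (47 UMIs, 52.7 to 95.4) and 26.9 CPM (12 UMIs, 13.9 to 47.0). Ccl21a was higher in sham members with an interval clear of no difference. Prox1, the defining factor of lymphatic endothelium, was at 1 UMI in colotomy members and 0 in sham members. Flt4 and Reln were at 0 in colotomy members. The 12 markers of cavity macrophages summed to 409 CPM in colotomy members (19 UMIs, 15 of them of Itgam) and 380 CPM in sham members (249 UMIs, 110 of Itgam and 76 of Naaa). Their defining factor Gata6 was at 0 and 2 UMIs, where 0 UMIs allow up to 64.5 CPM in colotomy members, and 4 and 10 of the 12 were found. Gata6, Prg4, Alox15, Selp, F5, Serpinb2, Garnl3 and Saa3 were at 0 in colotomy members, and Selp and Serpinb2 in sham members. The part of this RNA in the ratios was not tested.

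In the sham library the level of most genes given here followed the number of marker UMIs in the cell. F13a1, Cd209f, Fcna, Gpnmb and Mmp12 were named for their difference between C1q cells with and without a marker UMI, so that part is description. In sham C1q cells with 0, 1, 2 and 3 or more marker UMIs (289, 94, 93 and 227 cells), F13a1 was at 311, 680, 1040 and 1163 CPM. Cd209f was at 13.4, 45.3, 122 and 260 CPM over the same steps, and Fcna at 65.0, 128, 219 and 578 CPM. In the other direction Cx3cr1 was at 246, 181, 130 and 45.0 CPM, and Gpnmb at 276, 83.1, 16.3 and 5.00 CPM. Mmp12 was at 208, 264, 40.6 and 17.5 CPM and so did not fall at the first step. Other genes were not in step order either. Ccr2 was at 341, 363, 187 and 180 CPM, Lyz2 at 3880, 2758, 3348 and 2926 CPM, and Mrc1 at 518, 816, 951 and 918 CPM. MHC class II genes summed to 24881, 21571, 17300 and 17139 CPM, with the last 2 levels alike. Cells with a single marker UMI therefore lay between marker-free cells and the rest for most of these genes, with median depths of 1298, 1226.5, 1205 and 1509 UMIs. In the colotomy library the last 2 steps hold 13 and 14 cells, and the order was less regular. F13a1 was at 318, 659, 999 and 1720 CPM there, but Gas6 was at 139, 206, 899 and 573 CPM and Mrc1 at 622, 618, 899 and 1310 CPM. Cx3cr1 was at 226, 288, 99.9 and 0 CPM and Fcna at 20.5, 41.2, 0 and 409 CPM, and the MHC class II sum was lowest at 1 marker UMI, at 11251 CPM. The plot of levels by marker UMIs shows 8 of these measures.

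**Figure D4:**
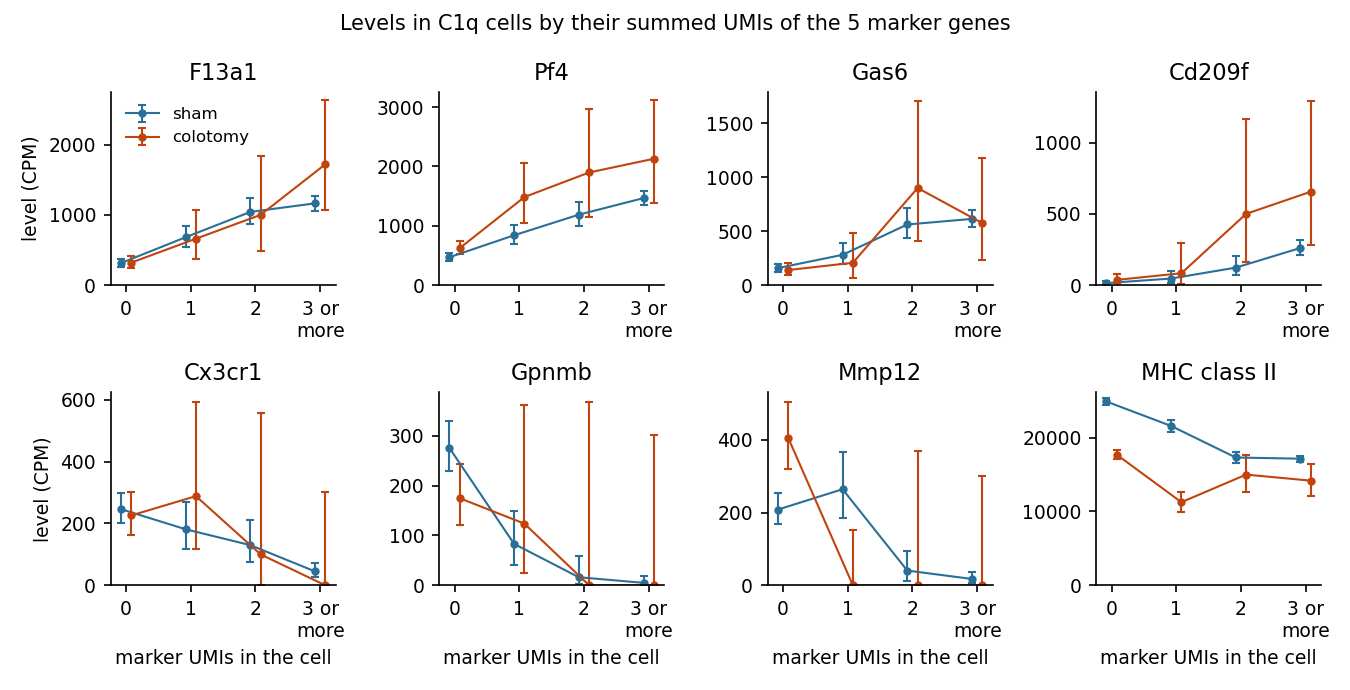
Level (CPM of summed cells) of 7 genes and of the summed MHC class II genes in C1q cells with 0, 1, 2 and 3 or more UMIs of the 5 marker genes, in the sham (blue) and colotomy (orange) library, with exact 95% Poisson intervals. F13a1, Pf4, Gas6 and Cd209f are higher, and Cx3cr1, Gpnmb and MHC class II lower, in sham cells with 3 or more marker UMIs than in cells with 0. The last 2 colotomy points hold 13 and 14 cells.

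Within the members, cells with and without a Lyve1 UMI were compared. In the sham library (234 and 180 cells, median depth 1396.5 and 1287 UMIs), 17.8% of 7427 genes were at least 1.5-fold higher with Lyve1 and 14.9% lower (2.68% and 2.63% with an interval clear of no difference). Cd209f was at 268 CPM with Lyve1 and 83.7 CPM without, Fcna at 576 and 204 CPM, and Ltc4s at 363 and 131 CPM. Ednrb, an endothelin receptor, was at 439 and 182 CPM, and Ccl24, an eosinophil chemokine, at 344 and 167 CPM. In the other direction Fabp5 was at 13.1 and 160 CPM, Cx3cr1 at 36.8 and 160 CPM, Axl at 47.3 and 146 CPM, and Gpnmb at 0 and 54.6 CPM. Nr1h3, the lipid-sensing receptor LXR alpha, was at 10.5 and 76.4 CPM, and Lpl, lipoprotein lipase, at 126 and 273 CPM. Of 11 scar- and lipid-associated genes 7 were lower with Lyve1 and 0 higher (median log2 −1.03), and of 10 gut macrophage maturation genes 7 were lower and 0 higher. MHC class II genes summed to 16474 CPM with Lyve1 and 20265 CPM without, with 0 of 10 past 1.5-fold. Mrc1, at 967 and 815 CPM, differed by less than 1.5-fold.

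In the colotomy library only 16 members had a Lyve1 UMI and 42 had none, and 21.4% of 644 genes were higher and 24.4% lower with Lyve1 (2.64% and 2.95% with a clear interval). Stab1 was at 1261 CPM (15 UMIs) with Lyve1 and 405 CPM (14 UMIs) without. The inflammatory genes held 3 UMIs in the 16 cells and 50 in the 42, or 252 and 1446 CPM. The immediate early genes summed to 3529.7 and 8239.6 CPM, with 10 of 12 measured lower with Lyve1 and 0 higher. Neutrophil markers held 1 and 47 UMIs over the same cells (84.0 and 1359 CPM), and 29 of the 47 lay in 1 cell. Red cell markers held 62 and 9 UMIs (5211 and 260 CPM, a log2 ratio of 4.32), with 56 of the 62 in 1 cell. The part of this RNA in the differences was not tested. Lgals3, galectin-3, held 0 and 33 UMIs, of which 16 lay in 1 cell. Timd4 marked 36 sham members, with a median depth of 1833.5 UMIs. Their MHC class II genes summed to 12434 CPM against 18742 CPM in the other 378 members, Ccr2 held 1 UMI (14.2 CPM against 243 CPM), and Fcna was at 668 against 390 CPM. Cx3cr1 was at 114 and 85.5 CPM, with intervals that overlapped.

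The last comparison sets colotomy members beside sham members, with the same ratio in marker-free C1q cells for reference. Both ratios share the 2 libraries, so neither supports the other. Of the 7648 genes that held 10 UMIs or more in the 2 member sums, 23.8% were at least 1.5-fold higher in colotomy members and 16.1% lower, and the median log2 ratio was −0.13. With a counting interval that excludes no difference the shares were 3.45% and 1.48%, so most of the genes past 1.5-fold were not set apart from counting error. In marker-free cells (7329 genes) the shares were 20.7% and 22.6%, and 6.45% and 4.86% with a clear interval. For members the higher and lower counts are not on an equal footing, because 0 UMIs in colotomy members allow up to 64.5 CPM. A gene absent there was counted as lower only if its sham level was 1.5-fold above that. The list counts below share this limit. With at least 100 UMIs per gene, 132 genes were higher in colotomy members and 201 lower. These counts are out of fewer genes and cannot be set beside the shares above.

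Lysosomal genes were higher in colotomy members, 13 of 18 against 0 lower, with a median log2 ratio of 0.87, and 9 of them had an interval clear of no difference. In marker-free cells 8 of 18 were higher and 1 lower, with a median of 0.54. Ctsd, an aspartic protease, was at 2108 CPM in colotomy members (98 UMIs) and 797 CPM in sham members (522 UMIs), a log2 ratio of 1.40 (1.08 to 1.72), against 0.78 in marker-free cells. Lgmn, asparagine endopeptidase, was at 1355 and 552 CPM, a ratio of 1.30 (0.88 to 1.68), and at 1.28 in marker-free cells. Ctsh and Cst3 were within 1.5-fold, at −0.10 and 0.09.

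Fc receptors and complement genes other than C1q were higher for 8 of 13 and lower for 0 (median log2 0.69), and lipid handling genes for 6 of 11 and 0 (median 1.07). The inhibitory Fc receptor Fcgr2b was at 581 and 282 CPM (a log2 ratio of 1.04, and −0.047 in the 11 and 319 members with at least 1000 UMIs) and the cholesterol exporter Abca1 at 495 and 211 CPM. Apoe was at 12197 CPM (567 UMIs in 56 of 58 cells) and 5811 CPM (3808 UMIs in 386 of 414 cells). The same lists in marker-free cells had 6 higher and 1 lower of 13 (median 0.32), and 4 higher and 0 lower of 11 (median 0.49). Of 12 scar- and lipid-associated genes 9 were higher and 0 lower in members (median 1.12), and of 14 in marker-free cells 10 and 1 (median 0.68). With 20 more genes of other lineages required at 0, which leaves 20 and 77 members, the medians of the Fc and complement list and of the scar-associated list were −0.061 and −0.44, and Lgals3 gave −0.44 in place of 1.47. The ferritin heavy chain Fth1 was at 5657 and 3239.6 CPM, and Hmox1, haem oxygenase, at 215 and 159 CPM.

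Inflammatory and immediate early genes were higher in both kinds of colotomy cells, and neutrophil markers moved with them. The 6 neutrophil markers were at 1033 CPM in colotomy members and 59.5 CPM in sham members (48 and 39 UMIs, a log2 ratio of 4.12), and at 2964 and 108 CPM in marker-free cells (4.78). Their part in the inflammatory genes was not tested. Of 8 inflammatory genes measured in members 7 were higher and 1 lower (median log2 2.61), and of 10 in marker-free cells 7 and 2 (median 2.23). Their summed level was 1140 CPM in colotomy members (53 UMIs in 21 of 58 cells) and 324 CPM in sham members (212 UMIs in 81 of 414 cells), below the 2188 CPM of colotomy marker-free cells. The neutrophil chemokine Cxcl2 held 16 UMIs in 6 colotomy members and 32 in 19 sham members, or 344 and 48.8 CPM. Tnf, Il6, Il1a, Cxcl1, Nos2 and Ccl5 were at 0 UMIs in colotomy members, and Il6, Il1a and Nos2 in sham members too. Ccl5 held 104 UMIs in 25 sham members. Of 16 immediate early and dissociation stress genes 10 were higher and 0 lower in members (median 1.04), and 11 and 0 in marker-free cells (median 0.88). Zfp36, which destabilises inflammatory mRNA, was at 516 and 198 CPM, and Egr1, an immediate early factor, at 452 and 208 CPM, although in members with at least 2 marker UMIs the Egr1 ratio was −0.016. These genes also respond to tissue digestion, whose part was not tested. The monocyte chemokines Ccl2 (10 UMIs in 8 cells, and 15 in 12) and Ccl7 (9 UMIs in 8, and 13 in 12) were at 215 and 22.9 CPM and at 194 and 19.8 CPM. Ccl8 was at 1248 CPM (58 UMIs in 23 cells) and 500.5 CPM (328 UMIs in 90 cells), a log2 ratio of 1.32 (0.89 to 1.72), against 0.41 in marker-free cells. The plot of gene lists sets members beside marker-free cells.

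**Figure D5:**
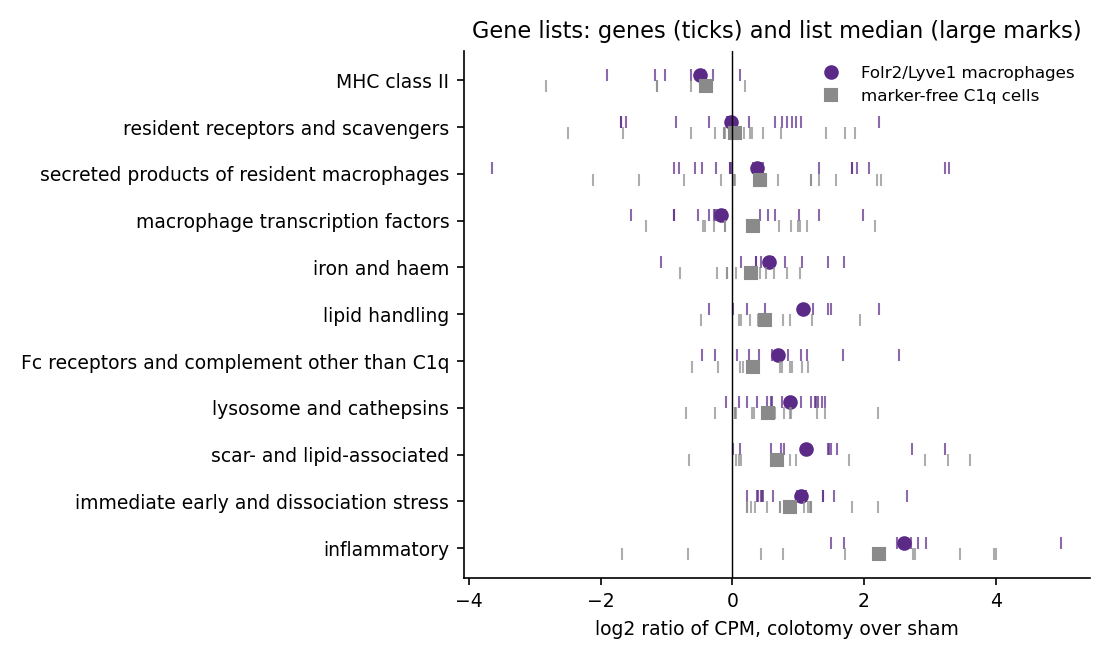
Log2 ratio of CPM, colotomy over sham library, for the genes of 11 lists (ticks, genes with at least 10 UMIs over both libraries and a UMI in each) and the list median (large marks), in Folr2/Lyve1 macrophages (purple circles) and marker-free C1q cells (grey squares). The median of the MHC class II list lies at −0.50 and −0.40, that of the lysosome list at 0.87 and 0.54 and that of the inflammatory list at 2.61 and 2.23.

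MHC class II genes were lower in colotomy members for 4 of 10 and higher for 0 (median log2 −0.50), and likewise 4 and 0 of 10 in marker-free cells (median −0.40). The interval was clear of no difference for 1 of the 4 in members (H2-Ob) and for all 4 in marker-free cells. The 7 B and plasma cell markers were lower in colotomy members too, at 602 and 1006 CPM, and the part of such RNA was not tested. The 10 MHC class II genes summed to 12820.5 CPM (11812 to 13892) in colotomy members and 18064 CPM (17740 to 18393) in sham members. Cd74 was at 5829 and 8222 CPM, a ratio of −0.50 (−0.68 to −0.32). Resident receptors and scavengers were divided, with 7 higher and 5 lower of 20 (median −0.02), and marker-free cells had 4 and 3 of 17 (median 0.04). Fcna was at 129 CPM (6 UMIs) in colotomy members and 420 CPM in sham members, a ratio of −1.70 (−3.16 to −0.56), and −1.66 in marker-free cells. Mgl2, a galactose lectin, was at 172 CPM (8 UMIs) and 555 CPM, a ratio of −1.69 (−2.91 to −0.70), and 0.04 in marker-free cells. Csf1r, the receptor of the macrophage growth factor CSF1, was at 796 and 822 CPM. Of 20 secreted products 7 were higher and 3 lower (median 0.37). Maf was 1.46-fold higher, within 1.5-fold.

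Ccl24 had the lowest ratio of the genes that were named by size, with 1 UMI in 1 of 58 colotomy members (21.5 CPM) and 177 UMIs in 109 of 414 sham members (270 CPM). The log2 ratio was −3.65 (−8.96 to −1.15), and that in marker-free cells −1.42 (−2.71 to −0.33). The other 11 at this end, Jmjd1c, Pycard, Srp14, Itch, Ndufa10, Ube2b, Yy1, Hcst, Il4i1, Rcn3 and Neurl3, each held 1 UMI in colotomy members and 72 to 120 in sham members. Genes at 0 UMIs in colotomy members were ranked by a bound against 3 counts, which places them above genes with 1 UMI. This end therefore leaves out absent genes such as Marco, at 0 UMIs in colotomy members and 124 in sham members. Their ratios ran from −3.09 to −2.35, and the intervals of Jmjd1c, Pycard, Srp14, Itch and Ndufa10 lay below no difference. In marker-free cells the ratios of these 11 ran from −2.77 to 0.20.

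At the high end, Xist stood first, with 21 UMIs in 10 of 58 colotomy members and 0 in 414 sham members, which allows up to 4.58 CPM there, at least 98.7-fold higher. Xist is the RNA of the inactive X chromosome in female cells. The 4 Y-linked genes held 7 UMIs in 5 colotomy members, none of which held Xist, and 133 UMIs in 109 sham members. RNA of both sexes was thus present in the colotomy library and almost only male RNA in the sham library, so sex and operation cannot be fully told apart. The other 43 colotomy members held neither kind of RNA, so the members could not be split by sex. Slpi, a protease inhibitor of neutrophils and epithelium, was at 903 and 19.8 CPM, but 40 of its 42 UMIs lay in 1 colotomy member, and the other 57 members held 2 UMIs.

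The other 10 genes at this end had UMIs in 11 or more colotomy members each. Lgals3 nevertheless rests in part on 1 cell, which held 16 of its 33 UMIs in colotomy members. With more genes of other lineages excluded, the log2 ratio of Lgals3 was −0.44, so its direction rests on the choice of cells. Mpeg1, perforin-2, was at 559 CPM (26 UMIs in 17 cells) and 160 CPM (105 UMIs in 80 cells), a log2 ratio of 1.80 (1.12 to 2.43), and 0.31 in marker-free cells. Ms4a7 was at 473 and 140 CPM, a ratio of 1.75 (1.01 to 2.44), and Sirpa, the receptor of the CD47 signal, at 559 and 172 CPM, a ratio of 1.70. Creg1, Wfdc17, Ly86, Aif1, Lgals3, Lpl and Ctsd followed, with ratios from 1.40 to 1.66. In marker-free cells the ratios of these 10 genes ran from 0.05 to 1.22, and those of Mpeg1, Creg1, Aif1 and Lgals3 had intervals that included no difference. Haemoglobin genes and Alas2, markers of red cells, summed to 1527 CPM (71 UMIs, 56 of them in 1 cell) in colotomy members and 5239 CPM in sham members.

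Hashtags did not give the members a tissue. The median share of hashtag 1 among hashtag UMIs was 81.6% in colotomy members and 28.4% in sham members, and the sham value is close to the 28.5% of all kept sham barcodes. Cells with at least 2 Epcam UMIs, which should come from the bowel, stood at 87.4% and 30.8%, so even they differed more between libraries than from the other cells of their library. The 2 components of the hashtag mixture gave calls for 1 hashtag only in each library. In the colotomy library members had a lower median share of hashtag 1 than marker-free C1q cells (87.8%), near the 82.1% of cells with mesothelial markers, and in the sham library the 2 kinds of C1q cells lay at 28.4% and 29.1%.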

How the data were processed

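Single cells of bowel and mesenteric fat were profiled in 2 libraries, 1 colotomy and 1 sham. The deposited values are raw UMI counts per gene and barcode (32285 genes and 2 hashtags), made by the authors with Cell Ranger 6.0.0, per the file headers. The submitters' processing notes also name STAR 2.5.1b, Seurat, Space Ranger and the mm10 build. Barcodes were filtered and chosen here by the rule in the report. No doublet caller was run, and cells with a UMI of Col1a2, Epcam, Cd79a or Cd3e were left out instead.

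UMIs were summed per library and kind of cell and divided by the sum of all genes (CPM). A gene was counted as higher or lower at 1.5-fold with at least 10 UMIs over both sums. Intervals are exact at 95%: Poisson for levels, Clopper-Pearson for shares and conditional binomial for ratios. Where 1 sum was 0, the ratio is a bound against 3 counts. No p-value was computed, since each group has 1 library. Intervals, floors and the summing step were tested on simulated data.

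The members and the gene lists were chosen with earlier results of these data known. Named genes are the 12 highest and 12 lowest by size in a comparison (for colotomy against sham, at least 20 UMIs and 100 CPM in the higher library, and no lower there than in all other barcodes), up to 4 examples a list and some textbook macrophage genes. Some genes the rule names are not reported here. Clec4n, Axl, Cd209g, Ltc4s, Ctss, Cxcl16, Cd36, Apoe and others named beyond that rule, the clear-interval counts and 3 of the alternatives were chosen after values were seen. Tissue was not read from the hashtags, because a 2-component mixture of their log ratio did not separate. Python 3.11.15, numpy 2.4.6, scipy 1.17.1, pandas 2.3.3, scikit-learn 1.9.0 and matplotlib 3.10.9 were used.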

Additional observations from a re-analysis of the deposited data

Results flagged for a closer look

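Aif1, an actin-binding protein of macrophages, differed in direction between the libraries. Its log2 ratio of members over marker-free C1q cells was 0.80 (0.16 to 1.41) in the colotomy library, from 32 and 77 UMIs, and −0.65 (−0.97 to −0.33) in the sham library, from 160 and 171 UMIs. The difference between the 2 ratios was not tested.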

How the results depend on the processing

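The share of C1q cells that are members was 10.2% in colotomy and 52.5% in sham with at least 2 marker UMIs, 26.5% and 65.7% with at least 6 C1q UMIs, and 45.6% in sham after thinning to 500 UMIs. The other settings moved it by less than its interval. Counts of genes at 1.5-fold fell with fewer cells, fewer genes tested or a higher fold. For colotomy against sham (1821 higher and 1231 lower), the lower count was 402 with at least 1000 UMIs and 500 genes, 641 with at least 2 marker UMIs and 719 with at least 6 C1q UMIs. Higher and lower were 442 and 408 with 20 more lineage genes at 0, 761 and 645 after thinning, 954 and 630 at 2-fold, and 132 and 201 with at least 100 UMIs per gene, and 1149 were higher with at least 20. For members against marker-free cells in colotomy (900 and 967), they were 281 and 305 with at least 1000 UMIs, 327 and 391 with at least 6 C1q UMIs, 261 and 314 with more lineage genes, 494 and 524 after thinning, 323 and 431 with at least 20 UMIs per gene and 369 and 635 at 2-fold, and 615 were lower with at least 2 marker UMIs. In sham (1644 and 1073) they were 632 and 501 with more lineage genes, 992 and 641 with at least 20 UMIs per gene and 675 and 424 at 2-fold, and 1047 were higher after thinning. For the Lyve1 split (138 and 157 in colotomy, 1320 and 1109 in sham), thinning gave 50 and 61, and 475 and 500, and 2-fold gave 60 and 89, and 500 and 463. The median share of hashtag 1, in place of calls, was 81.6% and 28.4%.

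These log2 values changed sign. For colotomy against sham they were Fcgr2b at −0.047 and the proliferation median at 0.072 with at least 1000 UMIs, Egr1 at −0.016 with at least 2 marker UMIs, and the interferon median at −0.021 with at least 100 UMIs per gene. With more lineage genes at 0, the Fc receptor and complement median was −0.061, and the scar-associated median and Lgals3 were both at −0.44. For colotomy members against marker-free cells, Stab1 was at −0.57, Rgs1 at 0.096 and the scar-associated median at 0.038 with at least 1000 UMIs, and Lyz1 at 1.74 with at least 6 C1q UMIs. With more lineage genes, Ear2 was at 0.061, Cd36 at −1.24 and Ccr2 at 0.0018, and with up to 2 UMIs of each exclusion gene, Marco was at 0.48 and Prdx5 at 0.11. The cause was not tested. Of 1339 named-gene values 1185 moved by less than their interval, 143 moved by more and 11 changed sign.

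Cells with Y-linked RNA alone (5 in colotomy) and cells of 1 hashtag (0 in 1 library) were too few to compare. Leaving out a replicate was not possible with 1 library per group. No paired analysis was possible because each group has 1 library. Depth limits the colotomy members most, where 0 UMIs allow up to 64.5 CPM.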
